A study of Mus musculus with 69 samples.

Results

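The 10 genes Cdkn1a, Mdm2, Ccng1, Gadd45a, Bax, Trp53inp1, Sesn2, Phlda3, Eda2r and Aen are textbook transcriptional targets of the tumour suppressor p53. They were chosen by name, and every probe whose accession led to 1 of these symbols in RefSeq was taken: 16 probes of the 27484 that carried a symbol, and 10 genes of the 18660 tested. The lungs were those of female C57BL/6 mice, obtained at 5 to 7 weeks of age, 1 or 28 days after a single instillation into the trachea. The dose was 18, 54 or 162 µg of a nano-sized titanium dioxide, either NRCWE-025 or NRCWE-030, and the vehicle that all groups shared was water with 2% serum. Of the 14 groups, 13 held 5 arrays, and the day 28 group of the highest NRCWE-025 dose held 4, with 1 mouse per array. The 5 vehicle arrays of a day were the controls of both materials. The question asked of each gene was whether its level at a dose differed from that of the vehicle group of the same day. No group carried a genetic alteration or a positive control for DNA damage.

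When DNA is damaged, the kinases Atm and Atr and their partners Chek1 and Chek2 phosphorylate p53, which frees it from the ubiquitin ligase Mdm2 and lets it accumulate. p53 then binds paired half-sites in DNA and switches on genes that halt the cell cycle (Cdkn1a, Ccng1, Gadd45a), open mitochondria or cut DNA in dying cells (Bax, Aen), temper growth and survival signals (Sesn2, Phlda3), transmit a death receptor signal (Eda2r), reinforce p53 itself (Trp53inp1) or end the response (Mdm2). In lungs exposed to particles, these genes are often read as an indirect sign of DNA damage, because damaged DNA itself is not measured on an expression array.

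The half-site is the feature by which p53 recognises its targets, so it was looked for in the RefSeq promoter windows of the genes (mouse build GRCm38.p6, from 250 bases before to 50 bases after a start site). Windows were at hand for 9 of the 10 genes, 11 windows in all, since Cdkn1a and Aen had 2 start sites each; Trp53inp1 had none. The p53 half-site consensus, 10 bases that read the same on both strands (purines, then C, a pair of bases that are each A or T, G, then pyrimidines), occurred in windows of 6 of the 9 genes and in 7 of the 11 windows (63.6%), of which the 2 windows of Aen overlap and share 1 match. Of all 32851 windows of the same length, 2745 (8.4%) held it. The upstream window of Cdkn1a was the only member window with 2 half-sites no more than 13 bases apart, an arrangement found in 24 of all windows (0.07%). Only exact matches were counted. The 10 bases right after the second Cdkn1a match differ from the consensus at 1 position and were not counted. Stretches of 60 bases around the match, on the strand of the gene and with each match in capitals, are shown for the 5 genes whose match lay upstream of the start site in every window that held it. They are a sequence match only and hold no measurement of p53 binding.
Cdkn1a, chr17:29090881-29090940, plus strand: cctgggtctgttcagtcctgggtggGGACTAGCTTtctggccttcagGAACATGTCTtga
Mdm2, chr10:117710910-117710969, minus strand: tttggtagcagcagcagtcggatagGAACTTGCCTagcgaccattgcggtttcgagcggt
Ccng1, chr11:40755437-40755496, minus strand: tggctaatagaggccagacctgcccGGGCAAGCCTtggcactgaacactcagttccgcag
Gadd45a, chr6:67037413-67037472, minus strand: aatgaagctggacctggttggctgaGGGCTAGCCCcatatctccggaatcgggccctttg
Bax, chr7:45467065-45467124, minus strand: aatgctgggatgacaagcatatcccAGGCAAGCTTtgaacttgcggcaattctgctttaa

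Values are log2 ratios of lung RNA to a pooled mouse reference RNA on the same array, so a level of 0 means equal signal in lung and reference, and the level of 1 gene cannot be set against that of another. Between 49.1% and 72.8% of probes were above background in the lung channel, no probe was saturated, and the lung markers Sftpc, Sftpb, Ager and their like (10 genes) were above background on all 69 arrays. The arrays came from 19 slides of 2 to 4 arrays and 11 scan days, and each slide and each scan day held several groups. Vehicle arrays were only on slides 1 to 9 and 16, and only on scan days 1 to 6 and 10. The other slides held treated arrays alone. The main fits had no term for slide or scan day, so a dose difference cannot be fully told apart from a difference between slides. Of the 16 probes, 12 were above background on all 69 arrays. The other 4 were the 3 Eda2r probes, above background on 0, 2 and 13 arrays, and 1 of the 2 Aen probes, above background on 7, so that Eda2r was at the limit of what these arrays measure. Every gene had a value on every array. The whole lung was sampled, so fewer cells of a type and less RNA per cell cannot be told apart.

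None of the 10 genes passed the threshold, a Benjamini-Hochberg adjusted p under 0.05 over all genes in limma, at any dose of either material on either day. Across the 12 dose groups and 10 genes this made 120 differences from vehicle, of which 15 had an unadjusted p under 0.05 and 58 lay above 0. Over all genes, 5.12% to 12.9% had an unadjusted p under 0.05 in these 12 comparisons. The differences ran from -0.60 for Cdkn1a to 0.37 for Bax on the log2 scale. Their 95% confidence intervals, each taken singly, reached from 0.473-fold to 1.63-fold of vehicle, and only Cdkn1a had a limit below 0.5-fold. On day 1 the share of all genes called with NRCWE-025 was 0% at 18 µg, 0% at 54 µg and 0.209% at 162 µg, and the number of members with an unadjusted p under 0.05 was 0, 1 and 2, where 5.12%, 6.53% and 12.3% of all genes had one. With NRCWE-030 on day 1 the shares called were 0.00536%, 0.0804% and 1.69%, and 1, 1 and 3 members had an unadjusted p under 0.05, beside 7.3%, 8.76% and 12.9% of all genes. On day 28 the shares called with NRCWE-025 were 0.0589%, 0.0268% and 0.0161%, and 1, 2 and 0 members had an unadjusted p under 0.05, beside 8.89%, 7.07% and 7.23% of all genes. With NRCWE-030 on day 28 they were 0.118%, 0.0536% and 0.0965%, and the members were 2, 1 and 1, beside 9.02%, 6.52% and 7.51%. The highest of these shares, 1.69%, is less than 1 gene in a list of 10, so a count of 0 does not set the members apart from all genes. The median difference of the 10 genes at 162 µg on day 1 was 0.06 with NRCWE-025 and -0.02 with NRCWE-030, while the median over all genes was within 0.01 of 0 in both.

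**Figure D1:**
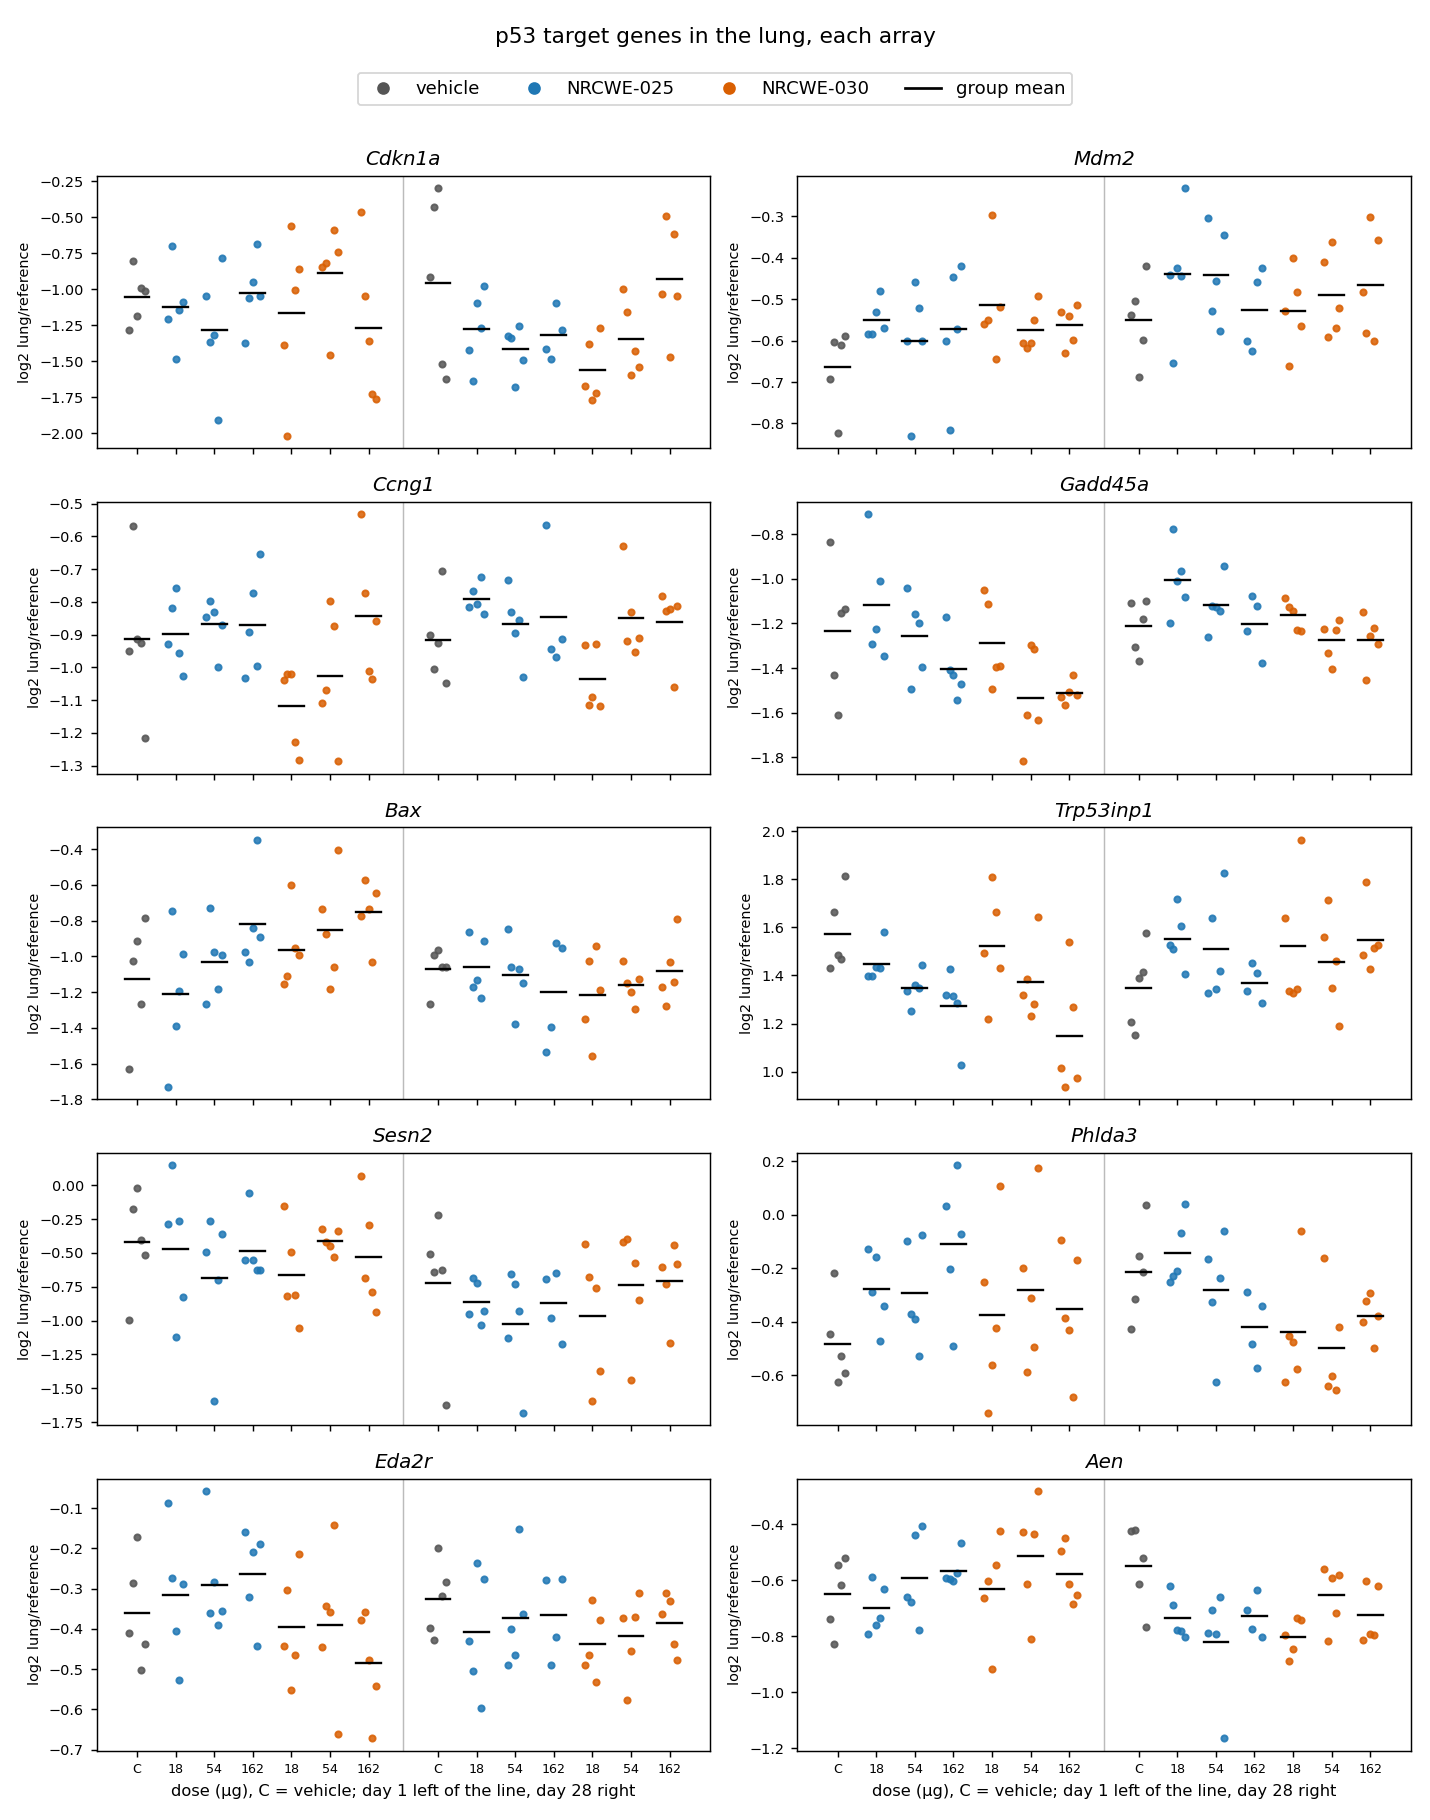
Level of each gene on every array, as log2 of lung over reference on the vertical axis of its panel, by group, with vehicle in grey, NRCWE-025 in blue, NRCWE-030 in orange and a black bar at the group mean. Most dose groups overlap the vehicle group of the same day. On day 1 all 5 arrays lie below every vehicle array for Trp53inp1 at 162 µg of NRCWE-025, the nearest at 1.426 against 1.431. For Mdm2 at 18 µg of NRCWE-025 all 5 lie above, the nearest at -0.583 against -0.590. Trp53inp1 at 162 µg on day 1 has the lowest mean of its panel, 1.15 with NRCWE-030.

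Trp53inp1, a stress-induced protein that promotes p53 activity and autophagy, came nearest to the threshold, in the downward direction. Its level in the 5 vehicle lungs of day 1 was 1.43, 1.67, 1.49, 1.47 and 1.81. In the 5 lungs given 162 µg of NRCWE-030 it was 1.02, 0.94, 1.54, 1.27 and 0.98. All but the third of these lay below every vehicle value. In the 5 lungs given 162 µg of NRCWE-025 it was 1.32, 1.43, 1.32, 1.29 and 1.03, each below the lowest vehicle value when carried to the third decimal. The group means were 1.57 ± 0.16 (SD, n = 5) for vehicle, 1.15 ± 0.25 for NRCWE-030 and 1.27 ± 0.15 for NRCWE-025. The difference from vehicle was -0.43 with NRCWE-030 (95% confidence interval -0.69 to -0.16, adjusted p = 0.0969) and -0.30 with NRCWE-025 (-0.47 to -0.13, adjusted p = 0.12), which is 0.744-fold and 0.813-fold of vehicle. Among the 18660 genes these ranked 573 and 246 by p.

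The lower doses of day 1 lay between vehicle and the highest dose. With NRCWE-025 the mean of Trp53inp1 was 1.45 ± 0.08 at 18 µg and 1.35 ± 0.07 at 54 µg, with 2 and 4 of 5 lungs below all vehicle lungs. With NRCWE-030 it was 1.52 ± 0.23 and 1.37 ± 0.16, with 1 and 4 of 5 below. Tested over all doses at once, the gene had an adjusted p of 0.313 with NRCWE-025 and 0.251 with NRCWE-030. On day 28 the means at 162 µg were 1.37 ± 0.07 (n = 4) with NRCWE-025 and 1.55 ± 0.14 (n = 5) with NRCWE-030, against 1.35 ± 0.17 in vehicle, and none of these 9 lungs lay below the lowest vehicle lung. Both probes of the gene had the same sign at 162 µg on day 1: -0.39 and -0.46 with NRCWE-030, -0.27 and -0.33 with NRCWE-025, none past the threshold over all probes.

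How the slides were treated was among several settings that moved the NRCWE-030 result of day 1 across the threshold. With no slide term, Trp53inp1 at 162 µg also passed in 1 fit over all 14 groups (-0.43, adjusted p = 0.0193). The scanner's log ratio gave -0.40 (adjusted p = 0.0422). On the slides that held both a vehicle array and a 162 µg array of day 1, the difference with NRCWE-030 was -0.45 on slide 8 and -0.28 on slide 16, and that with NRCWE-025 was -0.11 on slide 1 and -0.06 on slide 5, each from 1 array against 1. With slide as a random block, Trp53inp1 passed with NRCWE-030 (-0.43, adjusted p = 0.0264), and with slide as a fixed block it did not (-0.44, adjusted p = 0.0524). With NRCWE-025 the fixed block took the difference to -0.15 (adjusted p = 0.603). The third NRCWE-030 lung, at 1.54, was on slide 16, whose vehicle array had the highest vehicle value, 1.81. Without that lung the difference was -0.52 (adjusted p = 0.0342).

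Markers of fat, heart muscle and neutrophils were set beside Trp53inp1 and Phlda3. The mean log2 level of the 8 fat markers was 1.43 to 3.99 in the vehicle lungs of day 1, 0.67 to 2.38 at 162 µg of NRCWE-030 and 0.43 to 2.15 at 162 µg of NRCWE-025, with 5 to 7, 2 to 6 and 2 to 6 of the 8 above background. The mean of the 8 heart muscle markers was 0.69 to 5.19, 0.13 to 3.94 and 0.40 to 1.15 in the same groups, and that of the 8 neutrophil markers was 1.77 to 2.49, 2.05 to 2.68 and 1.81 to 2.82. The 10 lung markers had a mean of 4.87 to 5.54 in vehicle, 4.76 to 5.33 with NRCWE-030 and 4.76 to 5.20 with NRCWE-025, with a median difference from vehicle of -0.356 (3 of 10 at an unadjusted p under 0.05) and -0.257 (2 of 10). Single markers passed the threshold with NRCWE-030: at 162 µg on day 1 Csf3r, the receptor of the neutrophil growth factor G-CSF, rose by 1.25 (adjusted p = 0.00262) and Cidec, a lipid droplet protein of fat cells, fell by 1.36 on the log2 scale (adjusted p = 0.0306), and on day 28 Mmp9, a protease of neutrophil granules, fell by 0.96 at 54 µg and by 1.11 at 162 µg (adjusted p = 0.0168 and 0.00289). In the day difference of NRCWE-030, Csf3r and Mmp9 were called as well. At 162 µg of NRCWE-030 on day 1 the median difference was 0.319 over the 8 neutrophil markers and -0.624 over the 8 fat markers. Of these, 2 and 1 had an unadjusted p under 0.05, beside 12.9% of all genes. At that dose and day of NRCWE-025 the medians were -0.0111 and -0.853, with 0 and 2 of the 8, beside 12.3% of all genes. On day 28 the median difference of the 8 neutrophil markers was -0.584 at 54 µg and -0.551 at 162 µg of NRCWE-030. Of the 8, 6 and 5 had an unadjusted p under 0.05, beside 6.52% and 7.51% of all genes. With NRCWE-025 the medians at these doses were -0.50 and -0.439, with 4 and 3 of the 8. Between the vehicle groups, day 28 against day 1, the median was 0.536, with 4 of the 8. The part of these cell types in the levels of Trp53inp1 and Phlda3 was not tested.

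**Figure D2:**
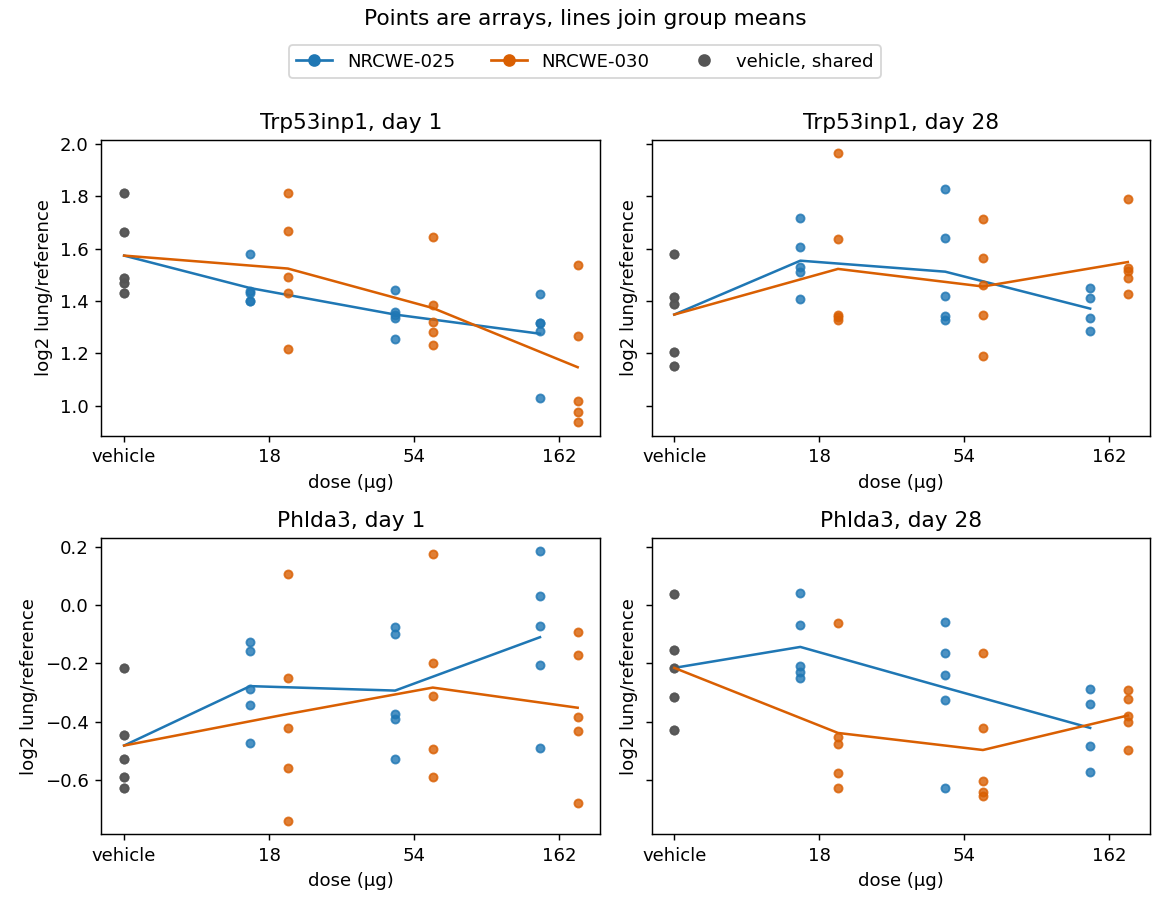
Trp53inp1 (upper panels) and Phlda3 (lower panels) on day 1 and day 28, as log2 of lung over reference against dose in µg; points are arrays, lines join group means and the grey vehicle points are shared by both materials. On day 1 the Trp53inp1 means descend from 1.57 in vehicle to 1.15 and 1.27 at 162 µg, whereas on day 28 they run from 1.35 to 1.55.

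Phlda3, which blocks the membrane binding of the survival kinase Akt, was the member nearest to the threshold in the upward direction. The vehicle lungs of day 1 had levels of -0.45, -0.22, -0.63, -0.53 and -0.59. At 162 µg of NRCWE-025 they were 0.03, -0.20, -0.49, 0.18 and -0.07, so 4 of the 5 lay above every vehicle value. The difference was 0.37 (95% confidence interval 0.12 to 0.62, adjusted p = 0.179), or 1.29-fold. On slides 1 and 5, which held both groups, it was 0.48 and 0.42. With NRCWE-030 at the same dose the values were -0.09, -0.38, -0.43, -0.68 and -0.17, which overlapped the vehicle values, and the difference was 0.13 (-0.20 to 0.46, adjusted p = 0.84). On slides 8 and 16, which held both of these groups, it was 0.43 and 0.16, each from 1 array against 1. On day 28 vehicle was at -0.22 ± 0.17 (SD, n = 5) and all 6 treated means but that of NRCWE-025 at 18 µg lay below it, the lowest with 54 µg of NRCWE-030, at -0.50 ± 0.21 (difference -0.28, adjusted p = 0.681). The vehicle lungs themselves were higher on day 28 than on day 1 by 0.27 (95% confidence interval 0.00 to 0.53, adjusted p = 0.576).

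Cdkn1a, which encodes the cyclin-dependent kinase inhibitor p21 and is the usual first readout of p53 activity, did not pass the threshold in any comparison. Its level in vehicle lungs was -1.28, -0.81, -1.19, -0.99 and -1.01 on day 1 and -0.92, -0.43, -0.30, -1.52 and -1.63 on day 28, a far wider spread on day 28 (SD 0.61 against 0.19). At 162 µg on day 1 it was -1.38, -1.06, -0.95, -0.69 and -1.05 with NRCWE-025 and -0.47, -1.05, -1.36, -1.73 and -1.76 with NRCWE-030. Lungs both above and below the whole vehicle range were thus present with each material. The differences were 0.03 (95% confidence interval -0.33 to 0.40, adjusted p = 0.962) and -0.22 (-0.74 to 0.31, adjusted p = 0.833). The upper limits correspond to 1.31-fold and 1.24-fold of vehicle.

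On day 28 at 162 µg, Cdkn1a differed from vehicle by -0.36 with NRCWE-025 (-0.83 to 0.10, adjusted p = 0.761) and by 0.03 with NRCWE-030 (-0.45 to 0.51, adjusted p = 0.992). Its widest difference of all was at the lowest dose of NRCWE-030 on day 28, -0.60 (95% confidence interval -1.08 to -0.13, adjusted p = 0.392), where the values were -1.67, -1.38, -1.77, -1.72 and -1.27. All 5 lay below the 3 higher vehicle lungs, and 3 of 5 lay below all vehicle lungs. The fifth array of that group stood apart technically: the deposited matrix followed its spot signals with a slope of 0.8653 against a median of 0.9927 over arrays, and its share of reference probes above background, 43.6%, was the lowest of the 69 arrays (median 62.7%). No member was called in that comparison with or without it. The mean log2 level of the 8 heart muscle markers was 0.60 to 2.39 in that group and 1.67 to 3.84 in vehicle, with a median difference of -1.91 and 6 of the 8 at an unadjusted p under 0.05, and their part in the level of Cdkn1a was not tested.

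**Figure D3:**
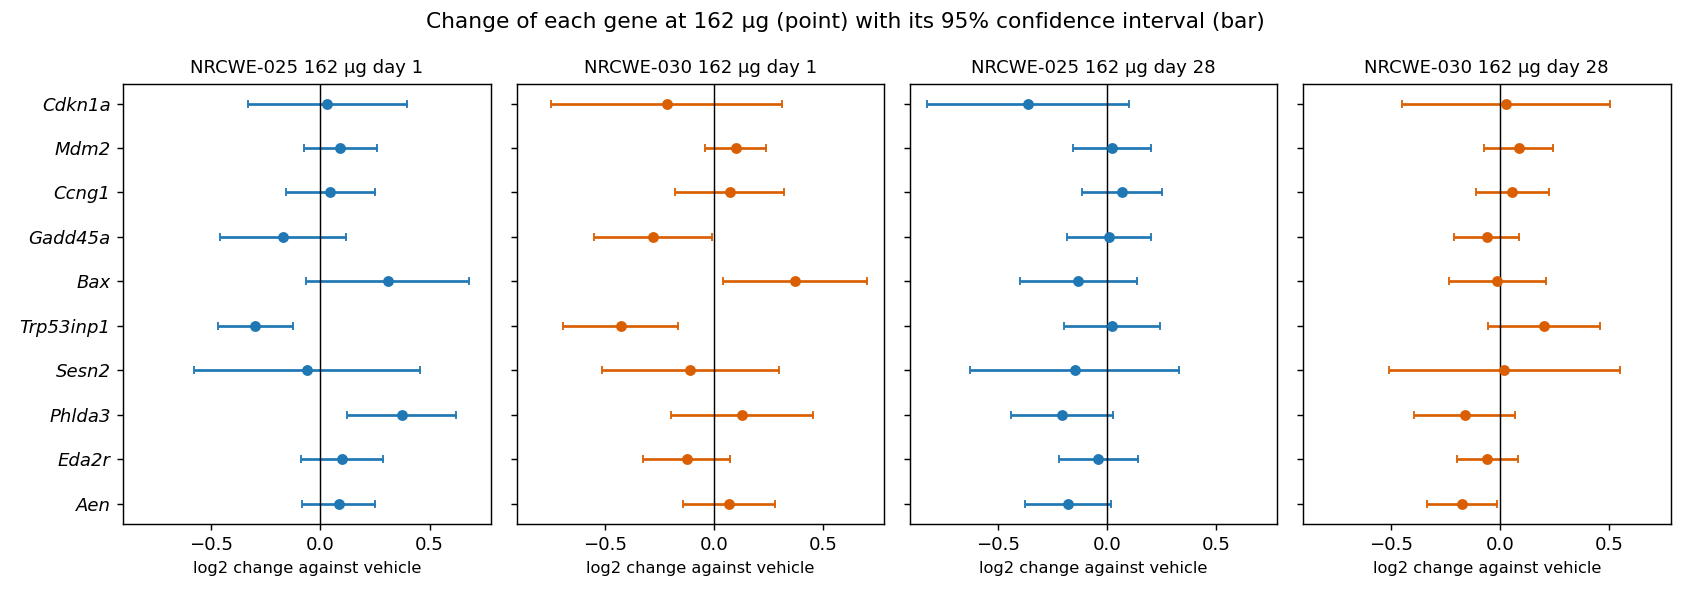
Difference of each gene from vehicle at 162 µg on the log2 scale (point) with its 95% confidence interval from limma (bar), in a panel for each material and day. The intervals of most genes cross 0. On day 1 those of Trp53inp1 lie below it with both materials and that of Phlda3 above it with NRCWE-025. Those of Bax and Gadd45a lie above and below it with NRCWE-030 on day 1. On day 28 that of Aen lies below it with NRCWE-030.

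Mdm2, the ubiquitin ligase that p53 induces as its own brake, had the smallest mean SD within groups, 0.105. That value combines 2 probes with a Pearson correlation of 0.019, which narrows the spread, so it cannot be set against a gene with 1 probe. The group means of Mdm2 ran from -0.66 in the vehicle group of day 1 to -0.44 with NRCWE-025 at 18 µg on day 28. At 18 µg of NRCWE-025 on day 1 all 5 Mdm2 values lay above every vehicle value (difference 0.11, adjusted p = 0.978). The gap was narrow, with the lowest of them at -0.583 and the highest vehicle value at -0.590. The mean of Mdm2 was above that of vehicle in 12 of 12 dose groups, which rest on only 2 vehicle groups, by 0.02 to 0.15. The widest was at 18 µg of NRCWE-030 on day 1, 0.15 (95% confidence interval 0.01 to 0.29, adjusted p = 0.654), the lowest adjusted p was 0.599, at 162 µg of the same material and day, and the upper limits at all doses were at most 1.22-fold. Ccng1, a cyclin that p53 induces and that acts back on Mdm2, was between -0.20 and 0.13 of vehicle, with no interval reaching beyond 0.731-fold or 1.25-fold. These bounds hold for the combined value of 2 probes that did not move together (Pearson correlation -0.174). On day 1 the first probe was at -1.23 in vehicle, -1.55 at 18 µg of NRCWE-030 and -1.01 at 162 µg. The second was at -0.60, -0.69 and -0.68.

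Gadd45a, a growth arrest protein that binds cell cycle and repair factors, was lower than vehicle at the upper doses of NRCWE-030 on day 1, by an amount that did not pass the threshold. Vehicle lungs had -0.84, -1.43, -1.61, -1.15 and -1.14, and the 162 µg lungs -1.53, -1.57, -1.51, -1.43 and -1.52, a tight cluster inside the lower part of the vehicle range. The difference was -0.28 (95% confidence interval -0.55 to -0.01, adjusted p = 0.367), and -0.30 at 54 µg (adjusted p = 0.503). Bax, the mitochondrial pore protein of apoptosis, had the opposite sign at that dose. Its vehicle values were -1.63, -1.03, -0.91, -1.27 and -0.79 and those at 162 µg of NRCWE-030 were -0.78, -0.57, -0.73, -1.03 and -0.65, with 4 of 5 above all vehicle lungs. The difference was 0.37 (0.04 to 0.70, adjusted p = 0.306) with NRCWE-030 and 0.31 (-0.06 to 0.68, adjusted p = 0.509) with NRCWE-025. On day 28 at 162 µg it was -0.01 with NRCWE-030 and -0.13 with NRCWE-025.

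Sesn2, a stress protein that restrains the growth kinase mTORC1, was read by 1 probe and had the widest spread within groups of the 10 genes, a mean SD of 0.36. It differed from vehicle by -0.30 to 0.02 with no adjusted p under 0.05. Aen, a nuclease that degrades DNA during apoptosis, had a mean below that of vehicle in all 6 dose groups of day 28, none past the threshold. All 6 rest on 1 vehicle group, whose mean was -0.55, against -0.65 in the vehicle group of day 1. The differences were -0.27 at 54 µg of NRCWE-025 (95% confidence interval -0.46 to -0.09, adjusted p = 0.473) and -0.25 at 18 µg of NRCWE-030 (-0.41 to -0.09, adjusted p = 0.239). At 162 µg the difference was -0.18 with NRCWE-025 (-0.38 to 0.02, adjusted p = 0.716) and -0.18 with NRCWE-030 (-0.335 to -0.016, adjusted p = 0.626). In vehicle lungs of that day its values were -0.42, -0.42, -0.61, -0.52 and -0.77, and at 18 µg of NRCWE-030 they were -0.80, -0.89, -0.85, -0.74 and -0.74, of which 3 of 5 lay below all vehicle lungs. Of its 2 probes, the one at background and the one above it had a Pearson correlation of -0.204 over 69 arrays, so the gene's value mixes signals that did not move together. On day 28 the probe at background was at -0.57 in vehicle and -0.82 at 162 µg of NRCWE-030, and the other at -0.53 and -0.63. At 18 µg of NRCWE-030 it was the other way, with -0.66 for the probe at background and -0.94 for the other. Eda2r, a receptor of the tumour necrosis factor receptor family, was within -0.12 to 0.10 of vehicle at all doses, on probes at or near background.

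The probes of a member moved little together. Over 69 arrays the 2 probes of Mdm2 had a Pearson correlation of 0.019, those of Ccng1 -0.174, those of Trp53inp1 0.176 and the pairs among the 3 probes of Eda2r 0.026 to 0.203. For comparison, the median over the 2036 genes of the array with 2 probes, both above background on all arrays, was 0.4, and it was 0.912 over the 35 of them whose probes varied most (mean SD over 0.5). Over the 1542 whose probes had a mean SD up to 0.3 it was 0.344. None of the 16 probes was called in any dose comparison over all probes with a symbol.

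Over all doses at once, the F-test called none of the 10 genes. The share of all genes called was 0.0214% with NRCWE-025 and 0.954% with NRCWE-030 on day 1, and 0.0268% and 0.102% on day 28, and 2, 1, 1 and 2 members had an unadjusted p under 0.05, beside 9.97%, 11.2%, 5.77% and 7.06% of all genes. The lowest adjusted p of a member was 0.251, for Trp53inp1 with NRCWE-030 on day 1.

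The materials were compared at matched doses, where the shared vehicle groups cancel, over 10 genes and 2 days. None of the genes passed the F-test over the 3 doses on day 1, when 0.155% of all genes did, or on day 28, when 0.241% did, and 3 and 0 members had an unadjusted p under 0.05, beside 7.78% and 6.29% of all genes. At 162 µg alone, 0% of genes were called on day 1 and 0.0161% on day 28, with 1 and 0 members at an unadjusted p under 0.05, beside 6.13% and 2.45% of all genes. That member was Eda2r, lower with NRCWE-030 than with NRCWE-025 by an estimated -0.22 (95% confidence interval -0.39 to -0.06, adjusted p = 0.721). Trp53inp1 differed between the materials by -0.13 at 162 µg on day 1 (-0.35 to 0.09, adjusted p = 0.895) and Phlda3 by -0.24 (-0.50 to 0.02, adjusted p = 0.832). On day 28 at 18 µg all 10 genes had a lower mean with NRCWE-030 than with NRCWE-025, with a median difference of -0.13 beside -0.00 over all genes, in a comparison of 5 arrays with 5 that includes the array that stood apart. In the same comparison the median difference was -2.11 over the 8 heart muscle markers, 4 of them at an unadjusted p under 0.05, and 0.302 over the 7 macrophage markers measured, also with 4, and their part in the shift was not tested.

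The change at 162 µg on day 1 was also set against that on day 28. With NRCWE-030, 0.198% of genes were called and none of the 10 members, with 2 at an unadjusted p under 0.05, beside 7.66% of all genes. Trp53inp1 stood at rank 50 of 18660, its change on day 1 being lower than that on day 28 by an estimated -0.63 (95% confidence interval -0.94 to -0.31, adjusted p = 0.0717). It passed with slide as a random block (-0.61, adjusted p = 0.0212), with slide as a fixed block (-0.57, adjusted p = 0.0406) and with scan day as a fixed block (-0.65, adjusted p = 0.0271). With NRCWE-025, 0.0589% of genes were called and none of the members, with 3 at an unadjusted p under 0.05, beside 10.5% of all genes. Phlda3 came first, at 0.58 (0.20 to 0.96, adjusted p = 0.219). Between the vehicle groups, day 28 against day 1, 0.0375% of genes were called and again none of the members. The 2 with an unadjusted p under 0.05, which 8.51% of all genes had, were Phlda3, given above, and Trp53inp1, at -0.22 (95% confidence interval -0.45 to -0.00, adjusted p = 0.58). The vehicle groups enter the day differences of both genes.

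The wider pathway was read from lists drawn up by function. Among 30 other p53 targets, Plk3, a stress-activated kinase of the polo family, rose at 162 µg of NRCWE-030 on day 1 by 0.63 (SE 0.145, adjusted p = 0.0312), the only gene of that list called at 162 µg of either material on either day. The median difference of the 30 was 0.00 and 0.04 with NRCWE-025 and NRCWE-030 on day 1, and 0.03 and 0.07 on day 28, with 8, 3, 1 and 5 of the 30 at an unadjusted p under 0.05. Over all genes that share was 12.3%, 12.9%, 7.23% and 7.51% in the same order, and the share called was 0.209%, 1.69%, 0.0161% and 0.0965%. Among the 15 genes of p53 and its regulators, none was called at 162 µg in limma, with 2, 1, 1 and 0 at an unadjusted p under 0.05 with NRCWE-025 and NRCWE-030 on day 1 and then on day 28. Trp53 itself differed from vehicle by -0.09, -0.08, -0.05 and -0.08. Of 27 DNA repair genes, 25 were measured and none was called, with 6, 4, 2 and 1 at an unadjusted p under 0.05, and with medians of 0.05, 0.04, -0.06 and -0.07.

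Among the 13 measured relatives of the 10 genes, 2 passed the threshold at 162 µg, each with 1 material. In the order given above, 5, 3, 1 and 0 had an unadjusted p under 0.05, beside 12.3%, 12.9%, 7.23% and 7.51% of all genes. The shares of all genes called were 0.209%, 1.69%, 0.0161% and 0.0965%. Gadd45b, a stress-inducible sister of Gadd45a, fell by 0.64 on the log2 scale at 162 µg of NRCWE-025 on day 1 (SE 0.118, adjusted p = 0.035), and its value with NRCWE-030 was -0.33 (adjusted p = 0.397). Cdkn1b, the p27 relative of Cdkn1a, fell by 0.47 on the log2 scale at 162 µg of NRCWE-030 on day 1 (SE 0.101, adjusted p = 0.0205), and its value with NRCWE-025 was -0.35 (adjusted p = 0.173). Whether the materials differed in these 2 genes was tested at 162 µg on day 1: the difference was 0.31 for Gadd45b (adjusted p = 0.828) and -0.12 for Cdkn1b (adjusted p = 0.896).

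**Figure D4:**
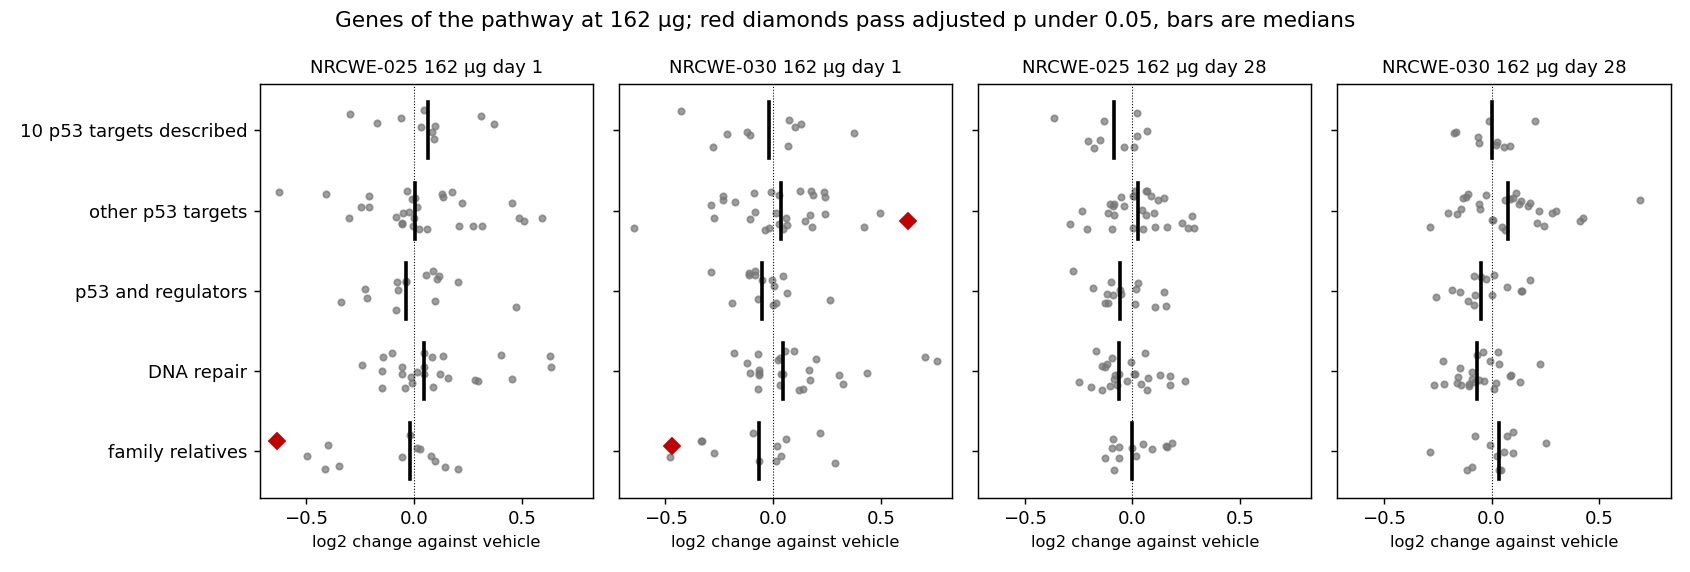
Difference from vehicle at 162 µg on the log2 scale for each gene of 5 lists, in a panel for each material and day; points are genes, bars the median of a list, and red diamonds the genes past an adjusted p of 0.05 (Plk3, Gadd45b and Cdkn1b, all on day 1). The medians of all lists lie within 0.1 of 0.

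Across the 69 arrays the 10 genes did not rise and fall as a group. Of their 45 pairs, 27 had a Pearson correlation above 0, with a range from -0.68 to 0.47 and a median of 0.07. After subtraction of the group means, 25 pairs were above 0, with a range from -0.63 to 0.39. The highest pair was Cdkn1a with Sesn2 (0.47, and 0.39 within groups), and the lowest was Gadd45a with Bax (-0.68, and -0.63 within groups). Each of these 4 genes has 1 probe, and all arrays share the reference RNA and the normalization, so the values are a description.

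**Figure D5:**
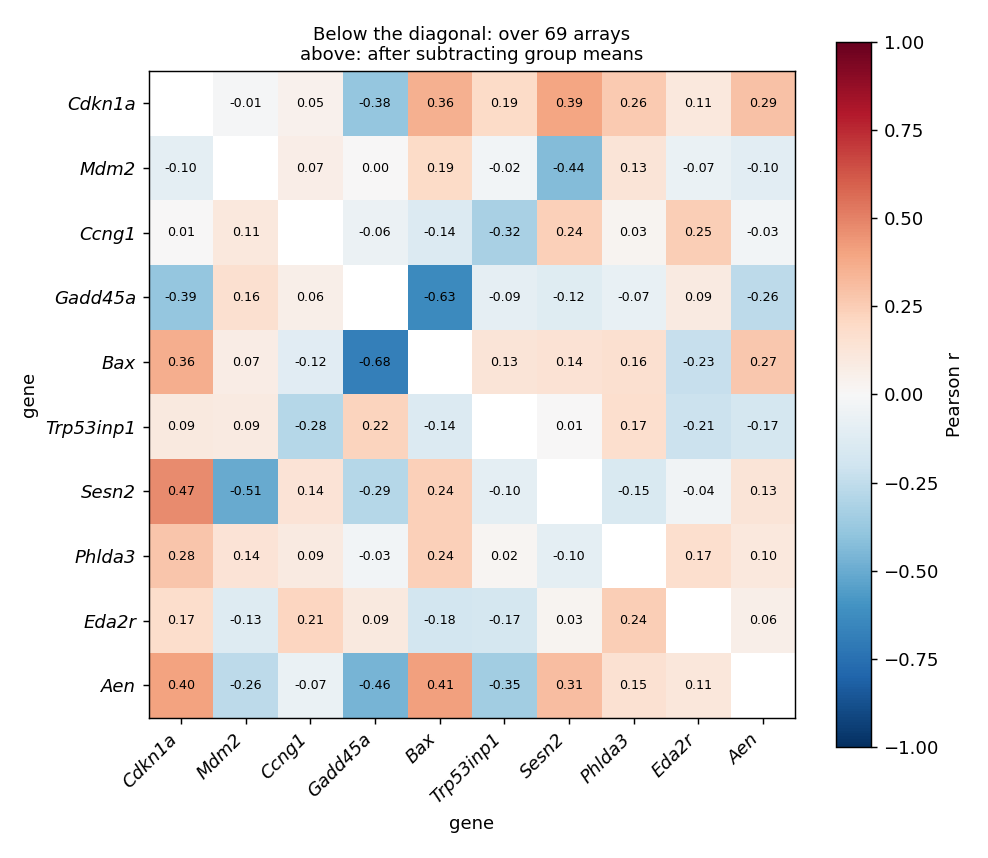
Pearson correlations between the 10 genes over 69 arrays (below the diagonal) and after subtraction of group means (above it), from blue (negative) to red (positive). The darkest cells are Gadd45a with Bax, at -0.68 and -0.63; most others are near 0.

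The genes whose pattern over the 69 arrays was most like that of a member, among 13694 genes above background on at least 50% of arrays, are given with their Pearson correlation. For Sesn2 it was Bach1 (Pearson correlation 0.901), followed by Tnrc18 (0.842) and Nf1 (0.83). For Bax it was Fkbp2 (0.821), for Gadd45a it was Afap1l2 (0.757), for Ccng1 it was Tgoln1 (0.721) and for Aen it was Wdr4 (0.715). Trp53inp1 was most like Pttg1 (0.685), Mdm2 like Pex7 (0.682), Phlda3 like Ccn4 (0.676), Cdkn1a like Sema7a (0.653) and Eda2r like Sgk1 (0.499). No pair of members reached the value of any of the 10 first-ranked genes. Each of those is the highest of 13694 correlations, whereas the members form only 45 pairs. The comparison therefore cannot show whether the members move together.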

How the data were processed

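Lung RNA (Cy5) of each mouse was hybridised against a pooled mouse reference RNA (Cy3) on 2-colour Agilent arrays, with no dye swap. The deposited scanner files (Feature Extraction 11.0.1.1, per the file headers) hold median spot and background signals as linear intensity, a log10 ratio, and flags scored 0 or 1. The deposited series matrix holds log2 values that the authors made by LOWESS within arrays; a slope of 0.9927 (median) against a loess without background correction fixed their direction as lung over reference. Values here were recomputed with limma 3.58.1 in R 4.3.3: local backgrounds marked as outliers were replaced by the median of the others of that array and channel, background was corrected by normexp (offset 50), loess was run within arrays, flagged spots were left out, and spots and then probes of a symbol were combined by the median. Of 41174 probes, 27484 (66.8%) had a symbol through RefSeq, and 93 of the symbols lacked a value on an array and were not tested, leaving 18660 genes. Each material and day was fitted with its 4 dose groups, and materials and days were compared in 1 fit over all 14 groups, with limma's moderated F-test or contrasts and Benjamini-Hochberg adjustment over all genes, called under 0.05. The scripts were tested on simulated data. Promoter windows and plots were read and drawn in Python 3.11.15 (pandas 2.3.3, matplotlib 3.10.9).

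The 10 genes were all described; other genes were named where called in a list, or as the 3 most correlated with a member. The genes, lists and tests were chosen with earlier results of these data known, and Trp53 was added as the factor itself. Alternatives concerned the background, the flags, the normalization, the filter on dim probes, the slide, the scan day, the fit and each left-out array; those for Trp53inp1 and Phlda3 were added after the values were seen. The p-values measure the spread between mice of these groups, and the number of arrays limits the precision.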

Additional observations from a re-analysis of the deposited data

Results flagged for a closer look

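Of 140 groups of 4 or 5 arrays (10 genes in 14 groups), 8 had an array far from the others by Dixon's 95% criterion, where chance gives about 1 in 20. On the log2 scale of lung over reference they were Ccng1 in NRCWE-025 at 162 µg on day 28, replicate 1 (-0.56, the nearest other at -0.91), and in NRCWE-030 at 162 µg on day 28, replicate 4 (-1.06, nearest -0.83). Bax stood out in NRCWE-025 at 162 µg on day 1, replicate 4 (-0.35, nearest -0.84). Trp53inp1 stood out in NRCWE-025 at 18 µg on day 1, replicate 5 (1.58, nearest 1.44), and in NRCWE-030 at 162 µg on day 28, replicate 2 (1.79, nearest 1.52). Sesn2 stood out in NRCWE-025 at 162 µg on day 1, replicate 2 (-0.055, nearest -0.55). Aen stood out in NRCWE-025 at 162 µg on day 1, replicate 5 (-0.47, nearest -0.57), and in NRCWE-025 at 54 µg on day 28, replicate 5 (-1.16, nearest -0.79).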

How the results depend on the processing

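The count of members called was recomputed for 21 comparisons and stayed at 0 under every alternative run, ordinary statistics without moderation included, except in 2 of them, where the gene called was Trp53inp1. For the highest dose of NRCWE-030 on day 1 the count was 1 with the scanner's log ratio (adjusted p = 0.0422), a random slide block (0.0264) and 1 fit over all 14 groups (0.0193), and ranged from 0 to 1 with 1 array left out. For the day difference of NRCWE-030 the count was 1 with the scanner's log ratio, a random slide block, a fixed slide block and a fixed scan day block. With 1 array left out it ranged from 0 to 1, reaching 1 without replicate 3 of the highest NRCWE-030 dose of day 1 (adjusted p = 0.0186) or replicate 5 of the vehicle group of day 28 (0.0423). The difference of Trp53inp1 at 162 µg on day 1 stayed below 0 across the fits over all arrays and those with 1 left out, from -0.52 to -0.37 with NRCWE-030 (adjusted p from 0.0193 to 0.232) and from -0.39 to -0.15 with NRCWE-025 (0.0705 to 0.603), and that of Phlda3 with NRCWE-025 ran from 0.30 to 0.47 (0.0739 to 0.413). The cause was not tested. Cdkn1a, not called in any setting, changed sign at the highest dose with 1 array left out: for NRCWE-025 on day 1 to -0.025, -0.0017 or -0.054 (range to 0.12), and for NRCWE-030 on day 28 to -0.083, -0.11, -0.14 or -0.052 (range to 0.19). No paired analysis was possible because the replicate numbers only name the arrays of a group. Signal near background limits Eda2r and 1 of the 2 Aen probes.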
